A study of Mus musculus with 2 samples.

Results

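The 10 genes described here, Gata3, Rora, Id2, Zbtb16, Tcf7, Lef1, Bach2, Bcl11b, Tox and Maf, encode transcription factors that guide how lymphocytes and innate lymphoid cells form and keep their identity. They were picked by gene symbol out of 28692 genes, and all 10 symbols were found. Their UMIs (unique molecular identifiers, which count captured transcript molecules) were summed over the cells of each deposited cluster and library and scaled to CPM, counts per 1e6 UMIs of those cells. The cells were CD45+ leukocytes resident in the adipose tissue (visceral per the title of the study) of adult wild-type C57BL/6 mice, separated from blood leukocytes by intravenous labelling. One library came from mice on chow, the control diet, and the other from mice on a ketogenic diet for 1 week, a diet low in carbohydrate that raises ketone bodies. The sources used here do not give the number of mice behind a library. With 1 library per diet no difference below has a replicate check, no test between diets was made, and every interval is a 95% interval for counting error only.

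As background, Gata3 and Rora are required for group 2 innate lymphoid cells (ILC2), tissue lymphocytes that release the cytokines of type 2 immunity, and Gata3 also acts in helper and regulatory T cells. Id2 blocks the E proteins that drive B and T cell programs, and by doing so permits innate lymphoid cells, natural killer (NK) cells and some dendritic cells to develop. Tcf7 (encoding TCF-1), Lef1 and Bcl11b set and hold T cell identity, Bach2 restrains effector differentiation, Tox and Maf act in activated or specialised T cells, and Zbtb16 (encoding PLZF) marks innate-like T cells. Adipose tissue is known for its resident ILC2, regulatory T (Treg) cells and γδ T cells.

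The chow library held 4545 cells and the ketogenic library 5614, with medians of 3469 and 3461.5 UMIs per cell. The deposited table placed 4458 and 5559 of them in 13 clusters, and 41 cell barcodes occurred in both libraries. Clusters were called X-like from marker genes that do not include the 10 factors. Cluster 0 was ILC2-like (854 chow and 1310 ketogenic cells), cluster 1 NK-like (724 and 1062), cluster 2 T-like (236 and 821), cluster 7 Treg-like (160 and 328) and cluster 11 γδ T-like (59 and 170). Cluster 4 (269 and 515) stayed unnamed because receptor genes of NK cells, Klra1 and Klra7, led it together with Cd3d and Cd3e. At least 2-fold higher than in all other cells were 9 of 10 ILC2 markers in cluster 0, 10 of 10 NK markers in cluster 1, 7 of 7 Treg markers in cluster 7 and 11 of 11 γδ T markers in cluster 11. Cluster 7 also had 9 of 9 CD4 T and 4 of 10 ILC2 markers raised. Its summed ILC2 markers were 3073 and 2816 CPM under chow and the ketogenic diet, against 4305 and 3980.2 in the ILC2-like cluster, and the part of ILC2 in its values was not tested. These 6 clusters, called lymphoid below although B cells are kept apart, held 51.6% of clustered chow cells and 75.7% of clustered ketogenic cells. The others were macrophage-like (3), conventional dendritic cell type 2-like and type 1-like (cDC2-like, 5, and cDC1-like, 6), B and plasma-like (9), cycling (10), mature dendritic cell-like (12) and unnamed with Retnla and Fcrls in the lead (8). The cDC2-like cluster was led by Cd209a and Clec10a and had 4 of 6 cDC2 markers raised, but also 5 of 6 markers of plasmacytoid dendritic cells (pDC), and its values are not those of cDC2 alone. Median depth in the lymphoid clusters ran from 2296.5 to 3052 UMIs per cell under chow and from 2993 to 3703 under the ketogenic diet, so a share of cells with a UMI is given after thinning each cell to 1000 UMIs, and the part of depth in other values was not tested.

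Gata3, a zinc finger factor encoded at chr2:9857078-9890034, minus strand (GRCm38, as are all positions here), was highest in the ILC2-like cluster, where it reached 583 CPM (interval 553 to 615) in the chow and 722 CPM (interval 697 to 748) in the ketogenic library. The Treg-like cluster came next with 496 and 495 CPM, and the T-like cluster followed with 113 and 139.5. In these 3 clusters both libraries lay above both libraries of the next one, although the step from ILC2-like to Treg-like within the chow library was narrower than the gap between the ILC2-like libraries. The γδ T-like, NK-like, unnamed lymphoid and cycling clusters lay between 66.7 and 89.4 CPM and their libraries overlapped, so no order holds among them. After thinning, 40.98% (interval 37.7 to 44.4) of chow and 46.1% (interval 43.4 to 48.9) of ketogenic ILC2-like cells had a Gata3 UMI (unthinned 70.1% and 79.1%). The cDC1-like cells, which should lack the transcript, gave 0.977% and 1.41% after thinning, and 5.54% and 9.58% without it, at medians of 7906 and 9922 UMIs against 2610.5 and 3133 in the ILC2-like cells.

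Rora, a nuclear receptor gene (chr9:68653786-69388246, plus strand), had the same leading cluster, with 576 CPM (interval 546 to 607) in the chow and 476 CPM (interval 456 to 497) in the ketogenic library. The γδ T-like cluster (421 and 311 CPM) and the Treg-like cluster (315 and 281 CPM) followed and overlapped each other. The T-like cluster held 111 and 96.5 CPM and the NK-like cluster only 32.3 and 36.7, so Rora, like Gata3, was far lower in NK-like than in ILC2-like cells. Between the diets Gata3 and Rora moved apart within the ILC2-like cluster. The ketogenic-to-chow ratio was 1.24 (interval 1.16 to 1.32) for Gata3, a log2 ratio of 0.31, and 0.827 (interval 0.772 to 0.886) for Rora, a log2 ratio of -0.27. Neither was past 1.5-fold, the size used here to count a pair of gene and cluster. In the Treg-like cluster Gata3 had a ratio of 0.998 (interval 0.862 to 1.16) and Rora one of 0.891 (interval 0.738 to 1.08), and in the γδ T-like cluster Rora had a ratio of 0.737 (interval 0.568 to 0.966).

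**Figure D1:**
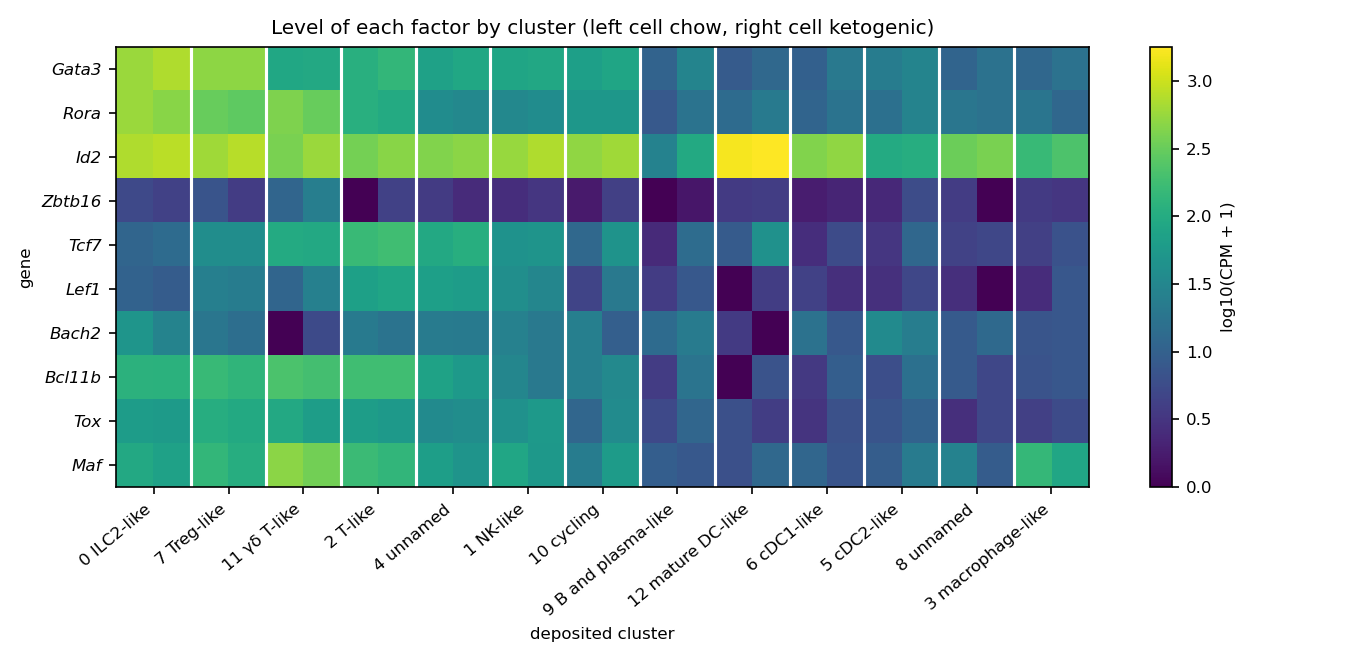
Level of each of the 10 factors, as log10(CPM + 1), in the 13 deposited clusters (x axis), with the chow library in the left cell and the ketogenic library in the right cell of each pair. All genes share the same colour scale. Gata3 and Rora peak in the ILC2-like cluster, Tcf7 and Lef1 in the T-like cluster, Maf in the γδ T-like cluster and Id2 in the mature DC-like cluster.

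Id2 (chr12:25093799-25097140, minus strand), which encodes a helix-loop-helix protein without a DNA-binding region, had the widest reach of the 10. It was highest in the mature DC-like cluster, with 1599.5 CPM (interval 1476 to 1730.2) in the chow and 1781 CPM (interval 1643 to 1927) in the ketogenic library. Below it, 9 clusters from the ILC2-like (725 and 817 CPM) down to the unnamed cluster 8 (327 and 393 CPM) formed a run in which each neighbour overlapped the next. The macrophage-like cluster (155 and 222 CPM), the cDC2-like cluster (94.8 and 105 CPM) and the B and plasma-like cluster (26.9 and 93.9 CPM) stood lowest, each with both libraries below those of the one before it. The cDC1-like cluster had 433 and 510.3 CPM, so both libraries there were above both libraries of the cDC2-like cluster. Id2 was thus the 1 factor of the 10 whose highest level was outside the 6 lymphoid clusters.

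At the level of whole clusters Id2 differed between the diets in the same direction. Its level was higher in the ketogenic library in all 13 clusters, also after each cluster's median log2 ratio over all genes was subtracted, though in the mature DC-like cluster the log2 ratio was -0.00052 without the deepest 5% of cells, and 11.8% of the 1140 genes with at least 50 UMIs in every cluster shared that direction. In the NK-like cluster it stood at 554 CPM (interval 521 to 590.0) in the chow and 720.3 CPM (interval 693 to 749) in the ketogenic library, a ratio of 1.299 (interval 1.21 to 1.399). The Treg-like cluster gave a ratio of 1.295 (interval 1.14 to 1.47), the T-like one 1.27 (interval 1.11 to 1.47) and the γδ T-like one 1.46 (interval 1.14 to 1.897). In the ILC2-like cluster the ratio was 1.13 (interval 1.06 to 1.19). In clusters 4, 5, 8 and 12 the interval included 1. The 13 values share 1 library per diet and are not replicates. Outside the B and plasma-like cluster the Id2 ratio of every whole cluster was under 1.5-fold, and there, with 19 and 165 UMIs, it was 3.49 (interval 2.17 to 5.94).

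Tcf7 and Lef1, which encode related HMG-box proteins that bind the same short DNA motif and pair with beta-catenin, were both highest in the T-like cluster. Tcf7 stood at 159 CPM (interval 129 to 194) in the chow and 178 CPM (interval 163 to 194) in the ketogenic library. Lef1 stood at 69.2 CPM (interval 50.1 to 93.2) in the chow and 80.7 CPM (interval 70.5 to 91.98) in the ketogenic library. Both libraries of the T-like cluster were above both libraries of any other cluster for Tcf7, and for Lef1 the next was the unnamed cluster 4 at 67.7 and 61.9 CPM, just under it. For Tcf7, cluster 4 (91.6 and 107 CPM) and the γδ T-like cluster (94.8 and 89.4 CPM) overlapped, and the NK-like cluster (44.5 and 47.3 CPM) was lower. The ILC2-like cluster had only 10.5 and 12.6 CPM of Tcf7 and 9.67 and 7.799 of Lef1, below the NK-like cluster in both libraries. After thinning, 14.8% (interval 10.6 to 20.02) of chow and 15.3% (interval 12.9 to 18.0) of ketogenic T-like cells had a Tcf7 UMI (unthinned 33.5% and 38.5%), against 0.326% and 0.563% of cDC1-like cells (unthinned 1.303% and 4.23%).

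Tcf7 is at chr11:52252371-52283014, minus strand, and Lef1 at chr3:131110471-131224356, plus strand. The table of RefSeq gene starts (GRCm38.p6) held windows for 7 of the 10 genes, 11 windows in all. The motif bound by TCF and LEF proteins, CTTTGA, was searched on both strands in the 250 bases before each start. It occurred in 3 of these windows, a start inside Lef1 (2 matches), a start inside Bach2 and the start of Bcl11b, and in 13.8% of all 32851 windows of the same length. The Lef1 and Bach2 windows are printed because they belong to members and hold letters that the proteins of Tcf7 and Lef1 bind. Both lie within the gene body and overlap no exon of the GENCODE M21 annotation, capitals mark the matches (TCAAAG is the motif read from the other strand), and a match is a description of the letters only.
Lef1, chr3:131156044-131156293, plus strand: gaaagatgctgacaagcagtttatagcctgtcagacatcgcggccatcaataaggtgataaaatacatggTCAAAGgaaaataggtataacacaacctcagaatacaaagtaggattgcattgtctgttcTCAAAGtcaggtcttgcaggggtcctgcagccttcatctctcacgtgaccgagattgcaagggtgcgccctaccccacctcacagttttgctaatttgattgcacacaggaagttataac
Bach2, chr4:32417185-32417434, plus strand: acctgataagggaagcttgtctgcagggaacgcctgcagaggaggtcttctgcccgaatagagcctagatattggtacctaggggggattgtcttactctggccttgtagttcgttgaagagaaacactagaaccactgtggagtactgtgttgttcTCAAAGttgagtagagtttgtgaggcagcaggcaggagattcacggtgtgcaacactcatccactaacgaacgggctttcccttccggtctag

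Between the diets neither gene was past 1.5-fold in any lymphoid cluster with enough UMIs. The ratio in the T-like cluster was 1.12 (interval 0.899 to 1.401) for Tcf7 and 1.17 (interval 0.839 to 1.66) for Lef1. In the subset of cells with at least 3000 UMIs the log2 ratio of Lef1 there was -0.25 in place of 0.21, so its direction is not settled. In the NK-like cluster Lef1 stood at 39.5 and 30.05 CPM and in cluster 4 at 67.7 and 61.9, ratios of 0.761 (interval 0.559 to 1.04) and 0.914 (interval 0.653 to 1.29).

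The T-like cluster was split by coreceptor. Cells with Cd8a or Cd8b1 and no Cd4 UMI (46 chow, 206 ketogenic) had 35.5 CPM (interval 11.5 to 82.8) in the chow and 47.8 (interval 33.5 to 66.2) in the ketogenic library of Maf, and cells with Cd4 and no Cd8 UMI (56 and 212) had 219.6 CPM (interval 148 to 314) in the chow and 179.6 (interval 151 to 212) in the ketogenic library. Maf was therefore higher in the Cd4 cells of both libraries. Id2 was 284 CPM (interval 203 to 386) in the chow and 498 (interval 449 to 551) in the ketogenic library in the Cd8 cells, a ratio of 1.76 (interval 1.27 to 2.499) from 40 and 375 UMIs and past 1.5-fold, and 410.0 and 432 CPM in the Cd4 cells, a ratio of 1.05 (interval 0.791 to 1.42). The difference between these ratios was not tested. Rora (28.4 and 82.4 CPM in Cd8 cells, 146 and 112 in Cd4 cells, from 4 chow UMIs in the former) had intervals that overlapped in the ketogenic library and not in the chow library. The intervals overlapped in both libraries for Tox (21.3 and 39.9 in Cd8, 95.2 and 73.9 in Cd4 cells), Gata3 (70.9 and 105 in Cd8, 161 and 141 in Cd4 cells), Tcf7 (170.2 and 167 in Cd8, 198 and 177 in Cd4 cells) and Bcl11b (170.2 and 159 in Cd8, 183 and 182 in Cd4 cells), with the higher value in the Cd4 cells each time. The remaining 134 and 403 cells had both kinds of UMI or neither.

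Bcl11b (chr12:107910403-108003602, minus strand), a zinc finger gene of T cell commitment that ILC2 also use, was highest in the γδ T-like cluster at 211 CPM (interval 151 to 287) in the chow and 189 CPM (interval 158 to 225) in the ketogenic library, above the T-like (180.2 and 180.1 CPM), Treg-like (153 and 133) and ILC2-like (121 and 119) clusters in turn. Cluster 4 had 73.0 and 54.6 CPM and the NK-like cluster 30.03 and 19.8. Both libraries of each of these clusters lay above both libraries of the one named after it. Within the ketogenic library the steps from γδ T-like to T-like and from Treg-like to ILC2-like were narrower than the gap between the libraries of the higher cluster. Its level was lower in the ketogenic library in all 6 lymphoid clusters, as was that of 13.6% of the 2187 genes with at least 50 UMIs in each, but in the γδ T-like cluster the log2 ratio of -0.17 became 0.0041 with new clustering, in the T-like cluster the ratio was 0.999 (interval 0.813 to 1.24) and in the ILC2-like cluster 0.983 (interval 0.849 to 1.14). Among the whole lymphoid clusters the NK-like one had the only ratio past 1.5-fold, 0.658 (interval 0.455 to 0.955), from 54 and 71 UMIs. It was inside that fold, at log2 ratios of -0.45 in cells with at least 3000 UMIs and -0.56 when the cells were clustered anew without the 10 genes.

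Tox (chr4:6686353-6991557, minus strand), another HMG-box gene, was highest in the Treg-like cluster at 104 CPM (interval 77.96 to 137) in the chow and 94.02 CPM (interval 78.7 to 111) in the ketogenic library, followed by the γδ T-like cluster at 89.5 and 63.03 CPM. The ILC2-like (62.2 and 58.5 CPM) and T-like (62.7 and 55.96 CPM) clusters overlapped, and the NK-like cluster (42.8 and 54.8 CPM) lay below both. Tox was not past 1.5-fold between the diets in any lymphoid cluster, with log2 ratios from -0.53 in the γδ T-like cluster to 0.35 in the NK-like cluster and wide intervals at both ends. The ratios there were 0.704 (interval 0.393 to 1.32) and 1.28 (interval 0.979 to 1.69).

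Maf (chr8:115682942-115707794, minus strand), a basic leucine zipper gene active in several T cell subsets and in macrophages, was highest in the γδ T-like cluster at 485 CPM (interval 391 to 594) in the chow and 356 CPM (interval 313 to 404) in the ketogenic library. The next clusters, T-like (162 and 136 CPM), Treg-like (141 and 106), macrophage-like (144 and 82.9), ILC2-like (91.7 and 71.3) and NK-like (81.8 and 52.6), formed a run of overlapping neighbours. After thinning, 38.98% (interval 26.5 to 52.6) of chow and 29.4% (interval 22.7 to 36.9) of ketogenic γδ T-like cells had a Maf UMI, and 0.977% and 0.563% of cDC1-like cells did (unthinned 76.3% and 68.2% against 7.49% and 5.07%).

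Maf was lower in the ketogenic library in all 6 lymphoid clusters, with log2 ratios from -0.64 in the NK-like to -0.26 in the T-like cluster. As given for Bcl11b, 13.6% of genes with enough UMIs shared that direction. The ratio was 0.735 (interval 0.576 to 0.945) in the γδ T-like cluster, 0.778 (interval 0.653 to 0.9298) in the ILC2-like cluster and 0.643 (interval 0.516 to 0.803) in the NK-like cluster. The interval included 1 in the T-like (0.837, interval 0.670 to 1.05), Treg-like (0.755, interval 0.565 to 1.02) and unnamed lymphoid (0.721, interval 0.504 to 1.04) clusters. In NK-like cells with at least 3000 UMIs the log2 ratio was -0.07, so the difference was close to 0 in the deeper cells, and when the cells were clustered anew it was -0.47, inside 1.5-fold. Markers of macrophages, which express Maf too, moved with these values. In the 6 lymphoid clusters 6 to 10 of the 10 were detected, Folr2 being the one most often at 0, and their sum ran from 152 to 218 CPM in the chow and from 31.4 to 72.1 in the ketogenic library, 202 and 53.7 in the NK-like cluster. In the 514 chow and 942 ketogenic NK-like cells without a UMI of any of these markers, a choice made after seeing the data, the log2 ratio of Maf was -0.71 and that of Bcl11b -0.65. In the other clusters the part of these markers was not tested. Outside the lymphoid clusters Maf was also lower in the macrophage-like cluster, 144 CPM in the chow and 82.9 in the ketogenic library, a ratio of 0.575 (interval 0.446 to 0.731), and in the unnamed cluster 8, where 77 and 2 UMIs gave 0.3002 (interval 0.0357 to 1.12).

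Within the γδ T-like cluster, cells with a Trdc UMI (45 chow and 96 ketogenic) had 539 CPM (interval 424 to 676) in the chow and 413 (interval 349 to 485) in the ketogenic library of Maf, and cells without one (14 and 74) had 335 and 292 CPM. Rora in the Trdc cells was 439 CPM (interval 335 to 563) in the chow and 255 (interval 206 to 313) in the ketogenic library, and the intervals did not overlap. In the cells without a Trdc UMI Rora was 374 CPM (interval 225 to 584) in the chow and 373 (interval 309 to 446) in the ketogenic library, and the difference between these subsets was not tested. Gata3 (50.3 and 74.9 CPM in Trdc cells, 177 and 106 in the others) and Tcf7 (71.9 and 58.2 in Trdc cells, 158 and 124 in the others) had higher values without Trdc in both libraries, with intervals that overlapped and on as few as 7 UMIs for Gata3 and 8 for Tcf7 under chow. In cluster 4 a Trdc UMI was found in 44 chow and 108 ketogenic cells, and there Tcf7 (67.8 and 95.6 CPM with Trdc, 96.0 and 110.4 without), Lef1 (67.8 and 47.8 with, 67.7 and 65.7 without) and Maf (59.3 and 57.4 with, 66.1 and 44.03 without) had intervals that overlapped between the subsets.

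Within the Treg-like cluster, cells with a UMI of Foxp3, the defining factor of Treg cells (48 chow and 100 ketogenic), had 868 CPM (interval 705 to 1058) in the chow and 1051 (interval 954 to 1156) in the ketogenic library of Id2, above the 542 and 697 CPM of the cells without one (112 and 228). Gata3 was 532 and 587 CPM with Foxp3 and 485 and 458 without. Tox was 168 and 126 with and 85.6 and 81.2 without, higher values with Foxp3 in both libraries but with overlapping intervals. Bcl11b was 239 CPM (interval 158 to 348) in the chow and 133 (interval 100.1 to 174) in the ketogenic library with Foxp3, a ratio of 0.557 (interval 0.345 to 0.919) from 27 and 54 UMIs, and 127 and 133 CPM without, a ratio of 1.04 (interval 0.748 to 1.48). Maf was 97.5 CPM in the chow and 146 in the ketogenic library in Foxp3 cells, a ratio of 1.49 (interval 0.777 to 3.15) whose interval includes 1. In the others it was 153 and 90.2 CPM, a ratio of 0.589 (interval 0.420 to 0.832). The Maf value of the Foxp3 cells under chow rests on 11 UMIs, and no difference between the subsets was tested.

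Zbtb16 (chr9:48654297-48836222, minus strand) was scarcely captured. All clustered cells gave 48 chow and 80 ketogenic UMIs. The γδ T-like cluster had the highest level, 10.5 CPM (interval 1.28 to 38.1) in the chow and 23.5 CPM (interval 13.4 to 38.1) in the ketogenic library, from 2 and 16 UMIs. Of the 16 ketogenic UMIs, 10 came from the 96 cells with a Trdc UMI, and the chow cells with Trdc had none. The ratio in the cluster, 2.23 (interval 0.523 to 19.96), leaves the direction unknown. The T-like cluster had 0 chow UMIs and 9 ketogenic UMIs, and no other cluster passed 6.02 CPM in either library.

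Bach2 (chr4:32238804-32586108, plus strand), a leucine zipper repressor of effector genes, was the 1 factor of the 10 for which the leading cluster's libraries did not both lie above those of the next cluster. Its 4 highest clusters, ILC2-like (49.2 and 27.5 CPM), cDC2-like (34.9 and 23.2), NK-like (26.1 and 19.8) and cluster 4 (21.2 and 21.1), were a run of overlapping neighbours. In the ILC2-like cluster its level was 49.2 CPM (interval 40.7 to 58.95) in the chow and 27.5 CPM (interval 22.8 to 32.9) in the ketogenic library, from 117 and 120 UMIs. The intervals did not overlap, and the ratio was 0.5596 (interval 0.4301 to 0.728), a log2 ratio of -0.84. After thinning, 4.68% (interval 3.37 to 6.32) of chow and 2.595% (interval 1.804 to 3.61) of ketogenic ILC2-like cells had a Bach2 UMI (unthinned 12.2% and 8.47%). In the γδ T-like cells, which gave 0 and 3 Bach2 UMIs, the thinned shares were 0% of 59 and 0% of 170 cells. The chow cells had no Bach2 UMI before thinning either, and 3 counts over 59 cells, the limit that a count of 0 allows, is a share of 5.08%. This limit is for cells with a captured UMI and not for cells that carry the transcript.

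Bach2 was also lower in the ketogenic library in the cDC2-like cluster, 34.9 CPM in the chow and 23.2 in the ketogenic library, in the cDC1-like cluster, 15.6 CPM in the chow and 6.89 in the ketogenic library, and in the cycling cluster, 23.9 CPM in the chow and 8.78 in the ketogenic library. Of these the first had a ratio of 0.663 (interval 0.469 to 0.936), which turned to a log2 ratio of 0.23 when the cells were clustered anew without the 10 genes. The larger new cluster behind that value held 1090 cells, of which 59.9% came from the cDC2-like cluster, so the sets of cells differ. The summed pDC markers of this cluster, 6 of 6 detected, were 767 and 856 CPM. Its 23 chow and 30 ketogenic cells with a UMI of the pDC gene Siglech had 92.5 CPM (interval 44.4 to 170.2) in the chow and 27.02 (interval 8.77 to 63.1) in the ketogenic library of Bach2, from 10 and 5 UMIs. The cells without one had 31.9 and 22.9 CPM, a log2 ratio of -0.48 and inside 1.5-fold. This split was made after seeing the data. The cDC1-like ratio was 0.442 (interval 0.254 to 0.757). In the cycling cluster the 33 and 14 UMIs were too few for the count of pairs. Cluster 9, with 9 and 38 UMIs, had a Bach2 ratio of 1.697 (interval 0.806 to 3.99), an interval that includes 1. Its cells with a B cell marker and no Jchain UMI (32 chow, 135 ketogenic) had 48.96 CPM (interval 15.9 to 114) in the chow and 40.7 (interval 25.5 to 61.6) in the ketogenic library of Bach2, from 5 and 22 UMIs. Its cells with Jchain, a gene of antibody-secreting cells (49 and 109), had 6.65 CPM (interval 1.81 to 17.03) in the chow and 13.2 (interval 7.53 to 21.4) in the ketogenic library, from 4 and 16 UMIs. The values were higher in the B cells of both libraries, with intervals that overlapped under chow and not under the ketogenic diet. The B cells made up 39.0% of the cluster under chow and 55.1% under the ketogenic diet.

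Over all 13 clusters, 77 pairs of factor and cluster had at least 50 UMIs over both libraries, and 17 of them were past 1.5-fold, 10 higher and 7 lower in the ketogenic library. In the 6 lymphoid clusters 3 of 50 pairs were past it, all lower: Bach2 in the ILC2-like cluster and Bcl11b and Maf in the NK-like cluster. The background is the share of all genes with as many UMIs that were past 1.5-fold in the same cluster. It was 16.3% in the ILC2-like cluster (1 of 9 members), 15.4% in the NK-like cluster (2 of 9), 21.3% in the T-like cluster (0 of 9), 16.3% in cluster 4 (0 of 9), 20.1% in the Treg-like cluster (0 of 7) and 19.8% in the γδ T-like cluster (0 of 7). In 4 of the 6 clusters none of the factors was past the fold, and the counts in the ILC2-like and NK-like clusters were near the backgrounds there.

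**Figure D2:**
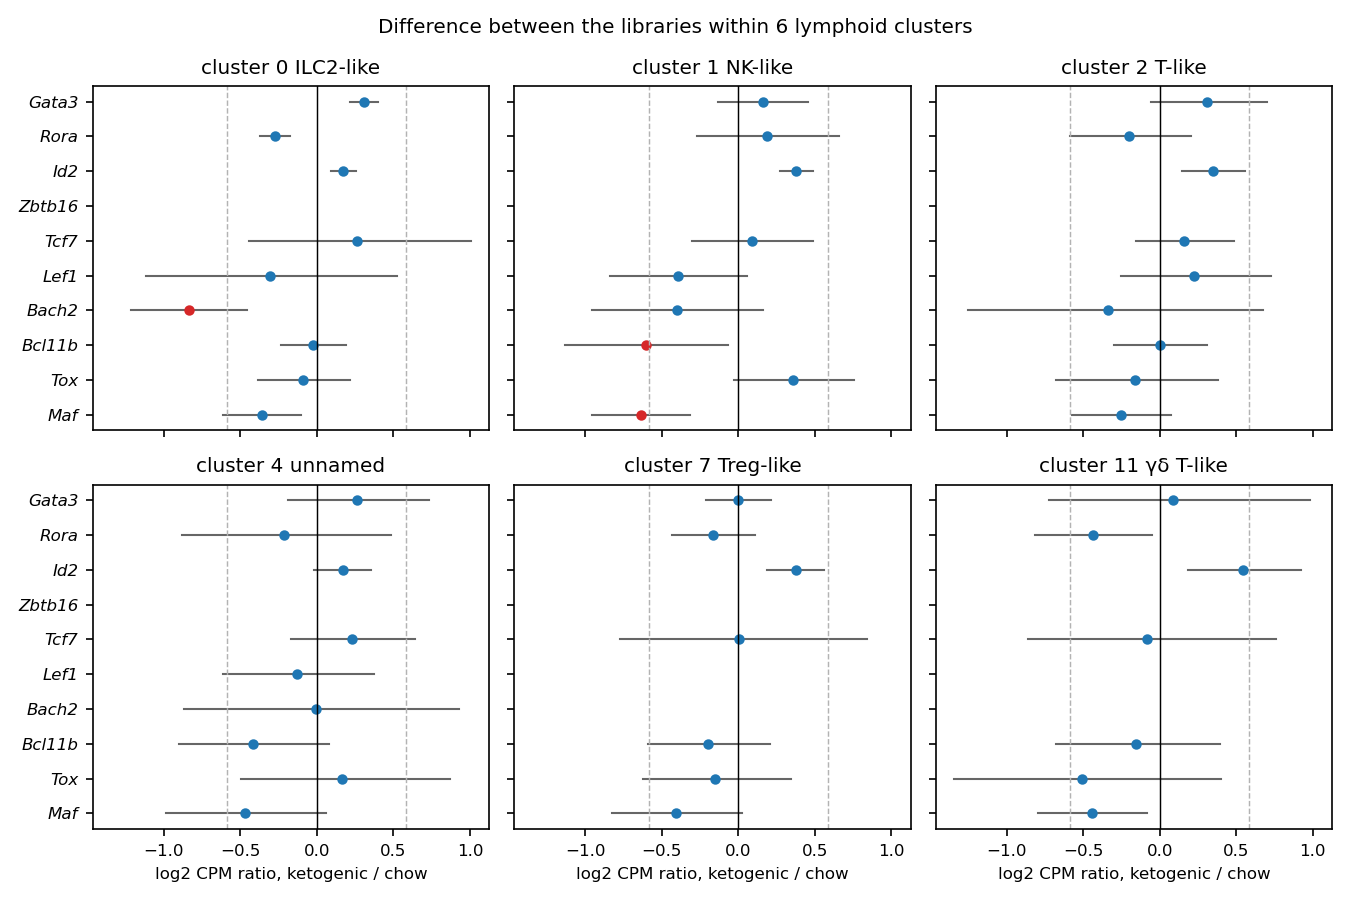
Log2 ratio of CPM, ketogenic over chow (x axis), of each factor with at least 50 UMIs in the 6 lymphoid clusters. Bars are 95% counting intervals, dashed lines mark 1.5-fold, and red points are past it (Bach2 in the ILC2-like cluster, Bcl11b and Maf in the NK-like cluster); Id2 lies to the right of 0 and Maf to the left of 0 in all 6 panels.

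Outside the lymphoid clusters 14 of 27 pairs were past 1.5-fold. The cycling cluster had 3 of 7 members past it, all higher (background 25.1%), the cDC2-like cluster 4 of 6, 3 higher and 1 lower (background 15.1%), and the cDC1-like cluster 3 of 4, 2 higher and 1 lower (background 15.1%). The B and plasma-like cluster had 2 of 2 higher, but there 46.1% of all genes were past the fold and the median log2 ratio of all genes was 0.50. Maf was the 1 member lower in the macrophage-like cluster (1 of 4, background 22.3%) and in the unnamed cluster 8 (1 of 3, background 26.8%). In the mature DC-like cluster Id2 was the only member with enough UMIs and was not past it (background 20.9%).

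In the cycling cluster Tcf7 was 11.6 CPM (interval 6.63 to 18.8) in the chow and 45.8 CPM (interval 35.9 to 57.6) in the ketogenic library, a log2 ratio of 1.95. Tox was 10.9 CPM in the chow and 36.4 in the ketogenic library (log2 ratio 1.71) and Maf 22.5 CPM in the chow and 59.6 in the ketogenic library (log2 ratio 1.39). All 3 factors were therefore higher by more than their counting error. This cluster mixes cell types. Cells with a UMI of a CD3 chain gene (Cd3e, Cd3d, Cd3g or Cd247) made up 38.0% of it under chow and 68.2% under the ketogenic diet. These shares are unthinned. They are not shares of T cells, since markers of other cell types were found in the same cells, as given below. Among those cells (54 chow and 105 ketogenic) Tcf7 was still 23.4 CPM (interval 12.1 to 40.9) in the chow and 65.9 (interval 51.2 to 83.3) in the ketogenic library. Tox was 15.6 and 49.6 CPM, Maf 37.1 and 83.99 and Lef1 7.81 and 29.6, higher in the ketogenic library, whereas Gata3 (107 and 100.2) and Bcl11b (44.9 and 48.7) were alike within their intervals. Summed markers of CD4 T cells, all 9 detected in both libraries, were 1183 and 2550.3 CPM in the same cells, those of NK cells (10 of 10 detected) 230.4 and 819.9 and those of ILC2 (10 of 10) 482 and 499. Those of cDC1 (7 of 7) were 1095 and 828 CPM and those of macrophages (9 of 10) 455 and 231, both lower in the ketogenic library. The part of these other cell types in the difference was not tested. Id2 in the cells with a CD3 chain was 465 CPM (interval 408 to 528) in the chow and 668 (interval 619.5 to 719.5) in the ketogenic library, a ratio of 1.44 (interval 1.24 to 1.67), and 542 and 496 CPM in the cells without a CD3 chain, a ratio of 0.914 (interval 0.784 to 1.06), so its higher value in the whole cluster was not found in the latter. In the cells without a CD3 chain (88 and 49) Tcf7 was 4.62 and 7.32 CPM and Maf 13.9 and 12.8, and Bach2 was 30.01 CPM (interval 19.6 to 43.97) in the chow and 7.32 (interval 1.99 to 18.7) in the ketogenic library, from 26 and 4 UMIs. In the same cells summed B cell markers (4 and 6 of 7 detected) were 399 and 1945 CPM, plasma cell markers (5 of 6 in each) 209 and 986 and macrophage markers (9 of 10 in each) 476 and 183. Their part in the Bach2 value was not tested.

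**Figure D3:**
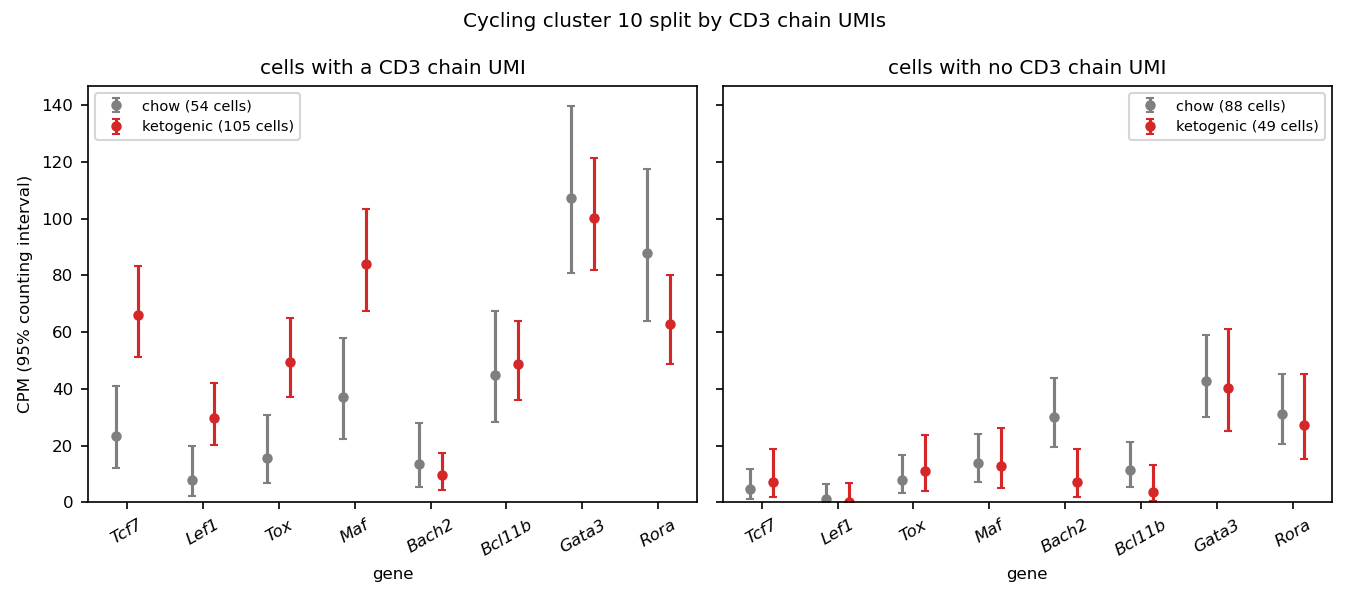
CPM of 8 factors (y axis, with 95% counting intervals) in the cycling cluster, chow in grey and ketogenic in red, for cells with a CD3 chain UMI (Cd3e, Cd3d, Cd3g or Cd247, left) and without one (right). Tcf7, Lef1, Tox and Maf are higher in the ketogenic library among cells with a CD3 chain, and Bach2 is lower among cells without one.

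The members that were higher past 1.5-fold in the cDC2-like and cDC1-like clusters stayed under 30 CPM there. In the cDC2-like cluster Bcl11b was 4.99 CPM in the chow and 14.8 in the ketogenic library, Maf 8.16 and 21.4 CPM and Rora 14.96 and 27.1, ratios of 2.97 (interval 1.502 to 6.42), 2.62 (interval 1.52 to 4.71) and 1.81 (interval 1.19 to 2.82). Without the cells with a Siglech UMI their log2 ratios were 1.55, 1.36 and 0.88. Maf had a log2 ratio of 0.24 in the new clustering, whose matching cells come only in part from this cluster as given for Bach2. When 10% of UMIs were subtracted as free RNA it was 3.87, but this removed most chow Maf counts and the value rests on the few left. In the cDC1-like cluster Gata3 was 9.02 CPM in the chow and 19.8 in the ketogenic library, a ratio of 2.197 (interval 1.34 to 3.73), and Rora 10.2 and 16.4 CPM, a ratio of 1.597 (interval 0.982 to 2.67) whose interval includes 1. As a mean of CPM over cells the log2 ratio of Rora was 0.40 in place of 0.66, inside 1.5-fold. The free RNA subtraction takes 10% of a gene's level over all clustered cells, which was 102 and 198 CPM for Gata3. It left no Gata3 count in either library, so the log2 ratio of -0.51 reflects total UMIs alone and gives no direction. That of Rora was 1.89, with few chow counts left. T cell markers moved with these values. The summed CD4 T markers, all 9 detected in each library, were 107 and 444 CPM in the cDC2-like cluster and 65.6 and 223 in the cDC1-like cluster, and ILC2 markers (9 or 10 of 10 detected) were 238 and 243 and 70.1 and 130.1. Their part in the result was not tested.

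In the B and plasma-like cluster Gata3 was 9.92 CPM in the chow and 27.9 in the ketogenic library, a ratio of 2.81 (interval 1.27 to 7.36) from 7 and 49 UMIs. Summed CD4 T markers, 9 of 9 detected, were 106 and 474 CPM there and plasma cell markers, 6 of 6 detected, 46564 and 25288. Id2 within the B cells of the cluster was 97.9 and 135 CPM, and within the Jchain cells 14.97 and 75.8. The wider of these differences was in the Jchain cells, whose median depth was 12549 UMIs under chow and 6694 under the ketogenic diet. As a mean of CPM over cells, in which each cell counts alike, the log2 ratio of Id2 was 0.92 in place of 1.77. Without mitochondrial, ribosomal, haemoglobin and immunoglobulin genes in the total it was 1.37, and that of Gata3 was 1.01 in place of 1.41. The free RNA subtraction left no chow count of either gene, so its values of 5.82 for Id2 and 3.56 for Gata3 do not measure a larger difference.

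Over all clustered cells most of the differences were larger, and the lymphoid clusters gave 29.2% of clustered chow UMIs and 57.1% of clustered ketogenic UMIs. Tcf7 stood at 17.1 CPM with chow and 46.7 with ketogenic feeding, a ratio of 2.73 and a log2 ratio of 1.45. With each cluster given the same weight in both libraries that became 0.23. Lef1 went from 1.08 to -0.00, Bcl11b from 0.93 to -0.07, Tox from 0.96 to 0.05 and Gata3 from 0.96 to 0.27. Rora changed sign, from 0.46 to -0.23. Weighted, 0 of 10 factors were past 1.5-fold, against 11.3% of all genes, and Bach2 (-0.52), Maf (-0.43) and Id2 (0.28) had the widest differences. Maf drew 43.1% of its chow UMIs and 83.6% of its ketogenic UMIs from lymphoid clusters, with 46.7% and 4.54% from the macrophage-like cluster, while Gata3 drew 88.1% and 93.3%.

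**Figure D4:**
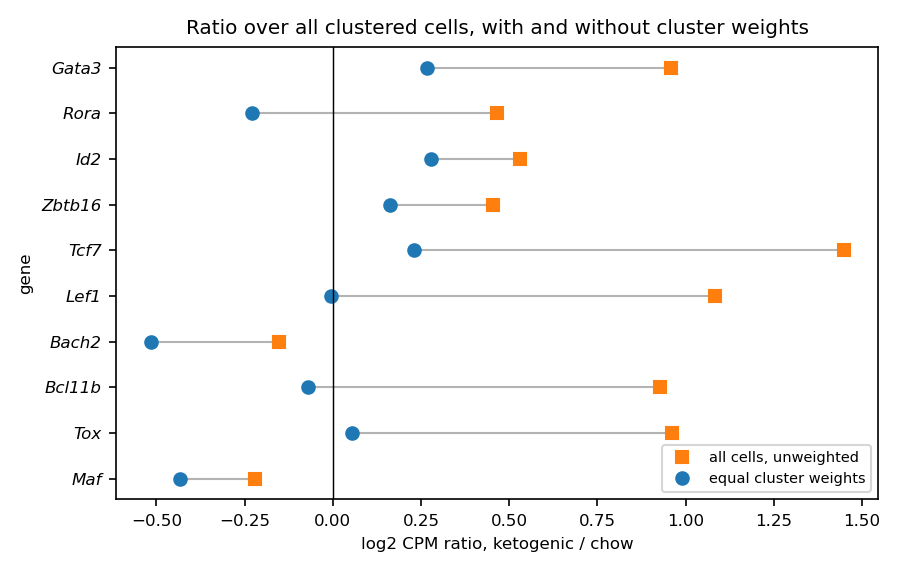
Log2 ratio of CPM over all clustered cells, ketogenic over chow (x axis), for each factor, unweighted (orange squares) and with each cluster's share of cells set equal in both libraries (blue circles). Tcf7 falls from 1.45 to 0.23 and Rora crosses 0 to -0.23.

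Other regulators of lymphoid fate, 34 genes outside the 10, were read in the same clusters beside the backgrounds given above. By direction, the share of all genes higher and lower past 1.5-fold was 8.94% and 7.35% in the ILC2-like, 7.97% and 7.44% in the NK-like, 14.3% and 7.01% in the T-like, 10.0% and 6.26% in the unnamed lymphoid, 13.6% and 6.55% in the Treg-like and 12.9% and 6.92% in the γδ T-like cluster. For these regulators and for the lists below, genes counted as higher or lower are past 1.5-fold. In the ILC2-like cluster 20 had enough UMIs, and 3 were higher and 2 lower past 1.5-fold, with a median log2 ratio, over genes with at least 10 UMIs, of -0.10 against 0.05 for all genes. Ikzf3 (106 and 160.3 CPM under chow and the ketogenic diet), Nfil3 (21.4 and 35.6), a factor of early innate lymphoid cells, and Gfi1 (13.5 and 22.7) were higher. Zeb2 (21.02 and 10.1) and Notch1 (18.9 and 11.2) were lower. Zeb2, which acts in the last steps of effector T and NK cell maturation, was also lower in the NK-like (66.2 and 34.2 CPM), unnamed lymphoid (43.8 and 16.5) and Treg-like (80.3 and 44.5) clusters. It was far higher in the macrophage-like cluster (476 and 385 CPM) and cluster 8 (344 and 210.4 CPM), and the macrophage markers given with Maf moved with it in each of these lymphoid clusters, a part that was not tested. Of the NK-like cluster's 25 genes 0 were higher and 4 lower, among them Hopx (86.8 and 45.6 CPM). In the T-like cluster 5 of 23 were higher, among them Batf (40.2 and 88.2 CPM), an activator in effector T cells, and 1 was lower, Zbtb7b (32.2 and 17.9), which directs CD4 T cells. In cluster 4 there were 2 higher and 1 lower of 19, in the Treg-like cluster 2 and 2 of 19 and in the γδ T-like cluster 2 and 0 of 10. Batf was higher in cluster 4 (25.2 and 41.8) and the Treg-like cluster (50.2 and 92.6) as well, and Satb1 (68.5 and 116) and Ets1 (253 and 394) in the γδ T-like cluster.

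Of 12 type 2 genes known to go with Gata3 and Rora, 11 had enough UMIs in the ILC2-like cluster and only Il1rl1 was past the fold. Il1rl1, the receptor for interleukin-33, stood at 790.4 and 513 CPM there (log2 ratio -0.62) and at 596 and 379 in the Treg-like cluster (log2 ratio -0.65), lower under the ketogenic diet in both. The cytokine gene Il5 was 108 and 169 CPM in the Treg-like cluster, the 1 gene of 8 that was higher past 1.5-fold. The list's median was -0.14 against 0.05 for all genes in the ILC2-like cluster and, in the other direction, 0.37 against 0.08 in the Treg-like cluster. Of 10 genes of naive and recirculating T cells known to go with Tcf7 and Lef1, 0 were past the fold in the T-like cluster (median -0.05 against 0.05), where all 10 had enough UMIs. In the Treg-like cluster 3 of 8 were higher, among them Ccr7 (18.1 and 36.1 CPM) and Cd27 (169 and 275), and 0 were lower, where 13.6% of all genes were higher.

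Of 12 genes of activated or exhausted T cells known to go with Tox and Maf, 7 had enough UMIs in the T-like cluster. Pdcd1, an inhibitory receptor, was higher there at 25.7 and 45.2 CPM, Cxcr6, a homing receptor, at 114 and 185 and Lag3 at 1.61 and 22.2, the chow value of the last being a single UMI. Cd44, an adhesion receptor, was lower at 236 and 133 CPM, and it was lower past the fold in the ILC2-like (228 and 115), NK-like (239.7 and 118), unnamed lymphoid (256 and 121) and Treg-like (367 and 186) clusters too. Summed macrophage markers were lower in the ketogenic library in each of these clusters as well, 152 and 44.3 CPM in the ILC2-like, 202 and 53.7 in the NK-like, 174 and 42.3 in the T-like, 218 and 31.4 in the unnamed lymphoid and 203 and 72.1 in the Treg-like cluster, and their part in Cd44 was not tested. The list's median in the T-like cluster was 0.32 against 0.05. Of 10 innate-like T cell genes known to go with Zbtb16, 4 of 7 were lower in the T-like cluster, among them the interleukin-18 receptor chains Il18r1 (103 and 57.8 CPM) and Il18rap (65.96 and 33.0), and Cxcr6 was higher, where 7.01% of all genes were lower. In the ILC2-like cluster 3 of 6 were lower, Fcer1g (217 and 105), Il18r1 (20.2 and 11.01) and Cd44 (all genes 7.35%), for a median of -0.55 against 0.05. Fcer1g and Cd44 are also expressed by myeloid cells, and the macrophage markers just given moved with them, a part that was not tested. In the γδ T-like cluster 0 of 4 were past the fold.

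The likeness of patterns over the 26 points of 13 clusters and both libraries was described by Pearson's r of log2(CPM + 10), among 9118 genes with at least 200 UMIs. The points share libraries and depth, and no p is given. Among the 10, Bcl11b and Tox were most alike (r = 0.928), and Gata3 with Rora gave 0.89, Rora with Bcl11b 0.897 and Tcf7 with Lef1 0.885. Bach2 had no r above 0.472 with any other factor, and Id2 none above 0.392. Among the 3 genes nearest to Gata3 were Inpp4b (0.956) and Zc3hav1 (0.943), and those nearest to Rora were Xlr4c (0.976), Tnfrsf25 (0.972) and Tmem64 (0.966). Lef1 was nearest to Rnf138 (0.963), Plcxd2 (0.955) and Lck (0.94), and Tcf7 to Cd247 (0.941), Tesc (0.938) and Crlf3 (0.933). Lck and Cd247 encode a kinase and a chain of T cell receptor signalling. For Bcl11b the nearest were Lat (0.973), Camk4 (0.97) and Klk8 (0.965), for Tox Tnik (0.958), Cers4 (0.95) and Tonsl (0.947) and for Maf, among others, Gstp1 (0.921) and Tmem41a (0.881). Lat is an adaptor of T cell receptor signalling. Id2, with a broad pattern, had lower values, with Dynll2 (0.853), Tes (0.832) and Sri (0.817), as did Bach2, with Dopey1 (0.749), Gm10138 (0.711) and Arhgef18 (0.682). Zbtb16 was nearest to Ly6g5b (0.869), Actn2 (0.867) and Ffar2 (0.85), on 128 UMIs in all.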

How the data were processed

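The values are whole-number UMI counts as deposited by the authors, without normalisation, 1 per gene and cell, from 10x Genomics libraries per the labels. Cell Ranger, Seurat and the build mm10 are named in the submitters' processing notes. Versions and the rule for calling cells are not given in the sources used here. The authors' deposited cluster numbers (resolution 0.5 per the file headers) cover cells with up to 4.99% mitochondrial UMIs and none above that.

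Here, UMIs were summed per cluster and library and scaled to CPM. Intervals are exact Poisson for CPM, exact conditional for ratios and Clopper-Pearson for shares, all 95%. Log2 ratios had 0.5 added to each count. A pair counted as past 1.5-fold needed at least 50 UMIs over both libraries. Thinning to 1000 UMIs used the exact hypergeometric expectation and left out no cell. A marker was raised at 2-fold after adding 20 CPM. No doublets were removed, and 1 alternative drops the deepest cells. From the gene lists, those past 1.5-fold were named, at most the 3 highest and 3 lowest of a list and cluster. The members and lists were chosen with earlier results of these data known. A split of the T-like cluster and single genes of the lists and likeness rankings are not reported here. The ratio computation was tested on simulated data. Positions come from GENCODE M21, and start windows from RefSeq. Python 3.11.15, numpy 2.4.6, scipy 1.17.1, pandas 2.3.3 and scanpy 1.11.5 were used.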

Additional observations from a re-analysis of the deposited data

Results flagged for a closer look

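Bcl11b had opposite differences in a pair of clusters, both past 1.5-fold. Its log2 ratio, ketogenic over chow, was 1.53 in the cDC2-like cluster and -0.61 in the NK-like cluster. Maf was at 1.39 in the cycling cluster and -1.42 in the unnamed cluster 8, the latter on 77 chow and 2 ketogenic UMIs. Neither difference between clusters was tested, since each diet has 1 library.

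The 87 chow and 55 ketogenic cells outside the deposited clusters entered no comparison, and their mitochondrial share of UMIs was above that of every clustered cell (4.99% at most). In these cells 9 of the 10 factors had more than 3 UMIs, the limit that a count of 0 allows. Gata3 had 37 UMIs in each library (166 and 211 CPM), Id2 84 and 43, Maf 27 and 6 and Rora 22 and 14. Zbtb16, with 1 and 0 UMIs, was the exception.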

How the results depend on the processing

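With 10% of UMIs subtracted as free RNA, no Gata3 count was left in the cDC1-like cluster. Its log2 ratio there, -0.51 in place of 1.11, therefore gives no direction. With the cells clustered anew without the 10 factors, that of Bach2 in the cDC2-like cluster was 0.23 in place of -0.59, from new clusters of which the larger drew 59.9% of its cells from that cluster. In cells with at least 3000 UMIs, that of Lef1 in the T-like cluster was -0.25 in place of 0.21. In cells with at least 3000 UMIs and with the new clustering, the NK-like log2 ratios moved inside 1.5-fold, to -0.45 and -0.56 for Bcl11b and to -0.07 and -0.47 for Maf. Apart from the free RNA value of Gata3, the cause was not tested for any of these. After seeing the data, cells with a Siglech UMI were left out of the cDC2-like cluster and cells with a macrophage marker out of the NK-like cluster. Of these 6 values 6 stayed within the counting interval, and Bach2 in the cDC2-like cluster moved inside 1.5-fold (-0.48). Of 70 alternative values for the factors in their leading clusters, the other 69 stayed within the counting interval, and of 111 for other pairs 102 did. The count of 17 pairs past 1.5-fold was 34 with a minimum of 20 UMIs (100 pairs read), 8 with a minimum of 100 UMIs (55 pairs) and 10 at a fold of 2, and between 16 and 22 under the other alternatives. The leading cluster was the same for 9 or 10 of the 10 factors under every alternative run. The new clustering gave 16 clusters, put 88.7% of cells with their deposited cluster and had no match for cluster 8, so no value was had there.

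Depth limits the reading of single cells, since thinning took the share of ILC2-like chow cells with a Gata3 UMI from 70.1% to 41.0%. In the γδ T-like cluster Zbtb16, Bach2 and Lef1 rest on under 20 UMIs per library. No paired analysis was possible because each diet has 1 library and the labels carry no replicate numbers.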
